A study of Rattus norvegicus with 36 samples.

Results

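The genes of cholesterol synthesis and sterol handling were followed in ileum and proximal colon of UCD-T2DM rats, a line bred as a model of type 2 diabetes. The list held 30 genes taken by name, and 29 of them had a row of counts among the 24773 genes of the table. Levels of Tm7sf2 were not analysed here, and this gene entered only the search of promoter sequences. All 29 passed the filter on low counts in ileum, where 13026 genes were tested, and 26 passed in colon, where 12906 genes were tested. The 3 that did not pass in colon were Abcg5, Abcg8 and Soat2.

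All rats were males of the UCD-T2DM line, in which diabetes arises spontaneously, and each of the 18 rats gave an ileum and a colon library after a fast. The 6 D3M rats were 172 to 173 days old and had been diabetic for 88 to 116 days, with fasting glucose of 165 to 330.6 mg/dl. The 6 D1M rats were 168 to 172 days old and had been diabetic for 22 to 23 days, with fasting glucose of 93.6 to 178.6 mg/dl. The 6 ND rats came from the same line at 70 days of age, before diabetes, with fasting glucose of 85.6 to 101.6 mg/dl. ND rats were younger than every diabetic rat, so that diabetes and age cannot be told apart in any comparison with ND. D3M and D1M rats were close in age and differed in the duration of diabetes. They also differed in age at onset, and every D3M rat weighed less than every D1M rat.

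Cells make cholesterol from acetyl-CoA through mevalonate, isoprenoids, squalene and a series of sterols. When sterol in the endoplasmic reticulum is low, SCAP carries the SREBP transcription factors to the Golgi, where they are cut and set free to switch on the enzymes. When sterol is high, INSIG proteins hold SCAP back. The intestine also takes up dietary and biliary cholesterol through NPC1L1, esterifies it by SOAT2 for chylomicrons, and returns sterols to the lumen through the ABCG5 and ABCG8 pair.

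Library totals ranged from 10024041 to 21510043 counts. Libraries with a mean of B cell markers above 2 on the log2 CPM scale are called high in B cell markers: 1 D3M, 2 D1M and 3 ND libraries in ileum, and 2 D3M, 1 D1M and 2 ND libraries in colon. The colon library of ND rat K4028 had 8706 CPM of Fabp6, the ileal bile acid binding protein. The 17 remaining colon libraries lay at 2.02 to 21.3 CPM, so that the library of K4028 stood apart. Results of the listed genes that rest on it are given with and without it. The ileum library of ND rat K4040 had 3616 CPM of the colonic carbonic anhydrase Car1, and the next highest ileum library, of D3M rat P762, had 1345 CPM. Libraries were run on 3 flow cells that were uneven over groups: in ileum, flow cell 2 held 0 D3M, 1 D1M and 3 ND libraries, and flow cell 1 held 4 D3M, 3 D1M and 1 ND library. Flow cell was therefore a term in every model. Levels are library-scaled counts after TMM (CPM) and are compared within a gene only, since gene lengths were not used.

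The synthesis genes moved together from library to library within a tissue. After the mean of each group and flow cell was removed from log2 CPM, the 18 synthesis genes, those of the mevalonate and isoprenoid steps and of the squalene and sterol steps, gave 153 pairs in each tissue. In ileum 149 of these pairs had a positive correlation, the median r was 0.651, and 71.2% reached an r of 0.5, against 8.31% of all pairs of genes tested, whose median r was 0. In colon 131 of the 153 pairs were positive, the median r was 0.394, and 34.6% reached 0.5, against 7.17% of all pairs. Without the libraries high in B cell markers the median was 0.685 in ileum and 0.382 in colon. Without K4040 it was 0.692 in ileum, and without K4028 it was 0.409 in colon. These values describe 18 libraries per tissue, the pairs share the same libraries, and no test was made over the list.

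**Figure D1:**
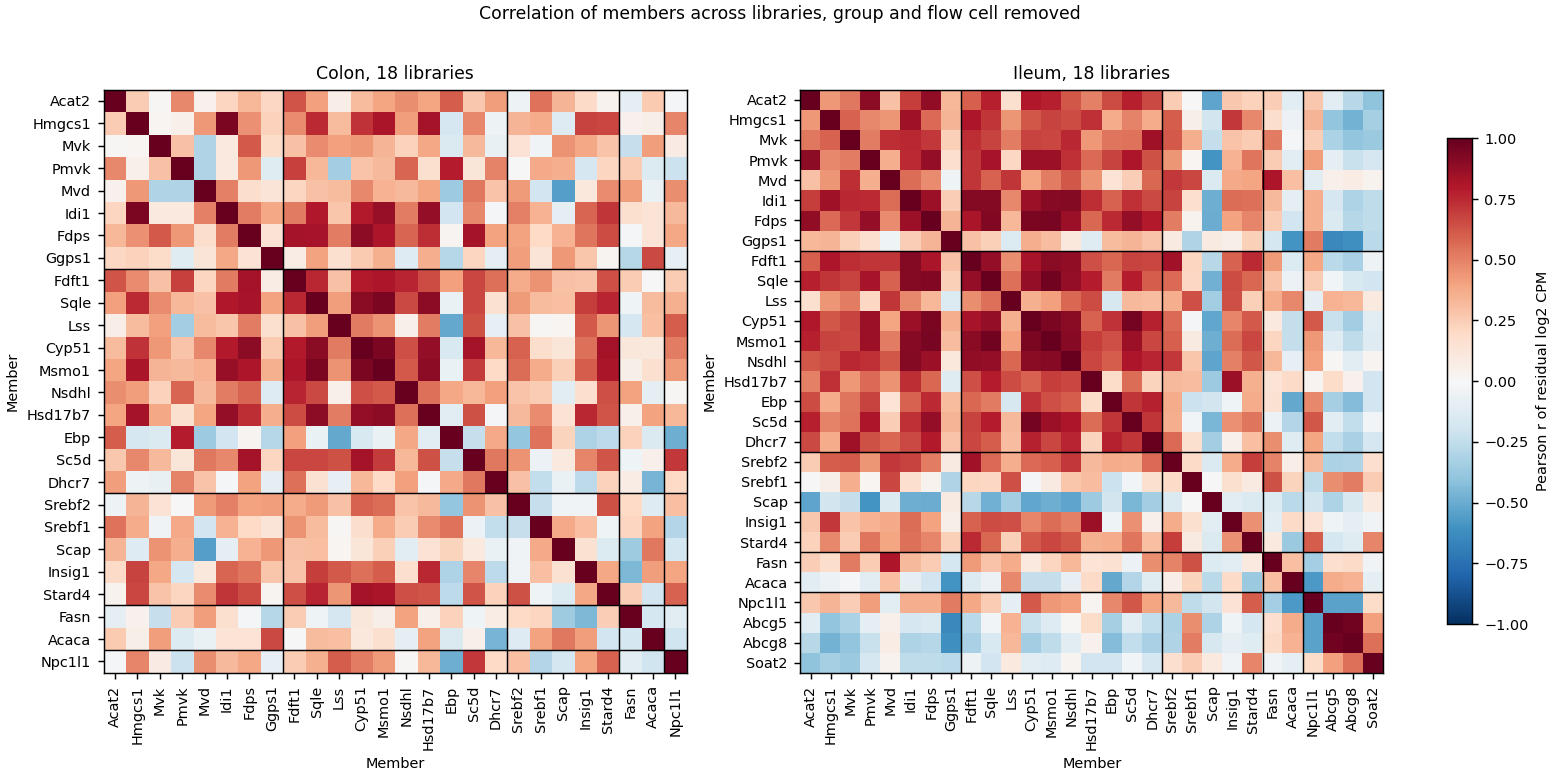
Pearson correlation of every pair of genes of the list across 18 libraries of colon (left) and 18 of ileum (right), after removal of group and flow cell from log2 CPM, with red positive and blue negative. The ileum block of synthesis genes is red in 149 of 153 pairs, and the row of Scap is blue against most of them.

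Sqle, the squalene epoxidase and a rate-controlling enzyme of the pathway, followed the mean of the other synthesis genes with r = 0.95 in ileum and 0.93 in colon. Msmo1, a sterol C4 methyl oxidase, followed it with 0.95 in ileum and 0.96 in colon, and Idi1, which isomerizes isopentenyl diphosphate, with 0.95 in ileum and 0.79 in colon. In ileum 7 of 18 synthesis genes exceeded 0.9 on this measure, namely Sqle, Idi1, Msmo1, Nsdhl, Fdft1, Cyp51 and Fdps. In colon the 4 that exceeded 0.9 were Cyp51, Msmo1, Sqle and Hsd17b7.

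Other synthesis genes followed the block less closely, in one tissue or both. Ggps1, which makes geranylgeranyl diphosphate for protein prenylation and lies off the branch to sterols, had r = 0.25 with the other synthesis genes in ileum and 0.29 in colon. Ebp, the sterol isomerase, had 0.60 in ileum and -0.07 in colon. Dhcr7, which makes the last bond change on the way to cholesterol, had 0.728 in ileum and 0.215 in colon, and Lss, the lanosterol synthase, had 0.497 in ileum and 0.415 in colon. In colon Pmvk, Mvk and Mvd were also low on this measure, at 0.29, 0.33 and 0.40, against 0.80, 0.77 and 0.59 in ileum. Lss was low in count, with 3297 reads over all 36 libraries, so that counting error takes a larger share of its spread.

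A set of 8 gene pairs was tested in ileum and the 6 of them with both genes measured were tested in colon, 14 tests in all. Tests used two-sided permutation of libraries with adjustment by Benjamini and Hochberg. Residuals were shuffled freely over libraries, with no allowance for the group and flow cell terms already removed. The permutation p-values are therefore somewhat too small, which matters most for pairs close to the threshold. Sqle and Idi1 had r = 0.92 and rho = 0.89 in ileum (n = 18, permutation p = 1e-05, the smallest the permutations allow, adjusted p = 7e-05). In colon the same pair had r = 0.80 and rho = 0.73 (permutation p = 4e-05, adjusted p = 0.000187). Without the 2 libraries farthest from the median of Sqle, r was 0.87 in ileum and 0.69 in colon. Within single flow cells of at least 6 libraries it was 0.83 and 0.98 in ileum and 0.69 and 0.97 in colon. The link thus held within flow cells in both tissues.

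Sqle also moved with Stard4, a carrier that moves cholesterol between membranes. The colon pair had r = 0.76 and rho = 0.75 (permutation p = 0.00031, adjusted p = 0.00108), with 0.81 and 0.71 within flow cells and 0.74 without the farthest 2 libraries. The ileum pair had r = 0.58 and rho = 0.55 (permutation p = 0.0119, adjusted p = 0.0208), with 0.60 and -0.10 within flow cells and 0.44 without the farthest 2. The ileum link was thus not seen within flow cell 3, which held only 6 ileum libraries, K4040 among them. Without K4040 the ileum pair had r = 0.68 (permutation p = 0.00265, adjusted p = 0.0053).

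Srebf2, which encodes the SREBP that drives the cholesterol enzymes, had r = 0.57 and rho = 0.61 with Sqle in ileum (permutation p = 0.0152, adjusted p = 0.0236). Within flow cell 1 its r was 0.78, but -0.16 within flow cell 3, and it was 0.61 without the farthest 2 libraries. Without K4040 its r in ileum was 0.69 (permutation p = 0.00217, adjusted p = 0.0053). In colon it had r = 0.43 and rho = 0.46 (permutation p = 0.0732, adjusted p = 0.0931), which did not pass, with 0.48 and 0.50 within flow cells, and with only the group removed it passed, with r = 0.52 (adjusted p = 0.0349). Srebf2 was positively correlated with 18 of 18 synthesis genes in ileum and with 16 of 18 in colon. Its own spread was small, with a residual SD of 0.09 on the log2 CPM scale in ileum, against 0.33 for Sqle.

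Hmgcs1, which opens the mevalonate branch, was tested with Insig1, the sterol-sensing retention protein of SCAP and itself a target of SREBP. In ileum the pair had r = 0.71 and rho = 0.76 (permutation p = 0.00117, adjusted p = 0.00328), with 0.67 without the farthest 2 libraries and 0.73 and 0.79 within flow cells. In colon r was 0.67 (permutation p = 0.00288, adjusted p = 0.00672) but rho was 0.41 (permutation p = 0.0969, adjusted p = 0.136). Without the farthest 2 libraries r in colon was 0.26, so that it rests on those libraries, D1M rat K3978 and ND rat K4028. With only the group removed, r in colon was 0.22 (adjusted p = 0.441).

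Scap, the escort of SREBP, ran the other way in ileum, with a negative correlation to 17 of 18 synthesis genes, a median r of -0.41 and a lowest r of -0.60 with Pmvk. In colon it was positive with 13 of 18 and the median r was 0.18. Scap varied least of the list in ileum, with a residual SD of 0.07. The difference between the tissues in these correlations was not tested.

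The sterol exporters formed a unit of their own. Abcg5 and Abcg8 encode the subunits of 1 transporter and lie head to head on chromosome 6. Their levels followed each other in ileum with r = 0.96 and rho = 0.88 (permutation p = 1e-05, adjusted p = 7e-05), 0.91 without the farthest 2 libraries, and 0.95 and 0.97 within flow cells. D3M rat P762 was lowest for both, with 28.5 CPM of Abcg5 and 25.0 CPM of Abcg8. D3M rats K3977, K3980 and P780 were the 3 highest, with 109 to 120 CPM of Abcg5 and 74.2 to 75.4 CPM of Abcg8. The D3M group was thus split, with the lowest and the highest ileum libraries of the study in it. Across libraries the exporters had a negative r with Ggps1, at -0.645 for Abcg5, the lowest of 406 pairs in ileum, and -0.611 for Abcg8. P762 was also the library with the most Ggps1. With group and flow cell removed, P762 lay at -1.221 for Abcg5 and 0.413 for Ggps1, and P780 at 0.714 and -0.373. The pairs with Ggps1 were not tested, and their r without these libraries was not computed.

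Npc1l1, the uptake channel, had r = -0.54 with Abcg8 in ileum (permutation p = 0.0239, adjusted p = 0.0335), but rho was -0.11 (permutation p = 0.677, adjusted p = 0.677) and r was -0.12 without the farthest 2 libraries. This relation rests on those libraries, D3M rat P762 and D1M rat K3989, and P762 had the highest Npc1l1 and the lowest Abcg8. Within flow cells r was -0.12 and -0.81. The lipogenic pair Srebf1 and Fasn, a regulator and its fatty acid synthase target, had r = 0.64 and rho = 0.65 in ileum (permutation p = 0.00468, adjusted p = 0.00936), with r = 0.38 without the farthest 2 libraries, and r = 0.215 and rho = 0.234 in colon (permutation p = 0.387, adjusted p = 0.417). With only the group removed the colon pair had r = 0.51 (adjusted p = 0.0369), and within flow cells -0.31 and 0.71. Fasn and Acaca, which encodes acetyl-CoA carboxylase, had r = 0.30 and rho = 0.179 in ileum (permutation p = 0.226, adjusted p = 0.264) and r = -0.175 and rho = -0.143 in colon (permutation p = 0.486, adjusted p = 0.486). Acaca had 802 counts over all 36 libraries, so that its values carry large counting error.

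**Figure D2:**
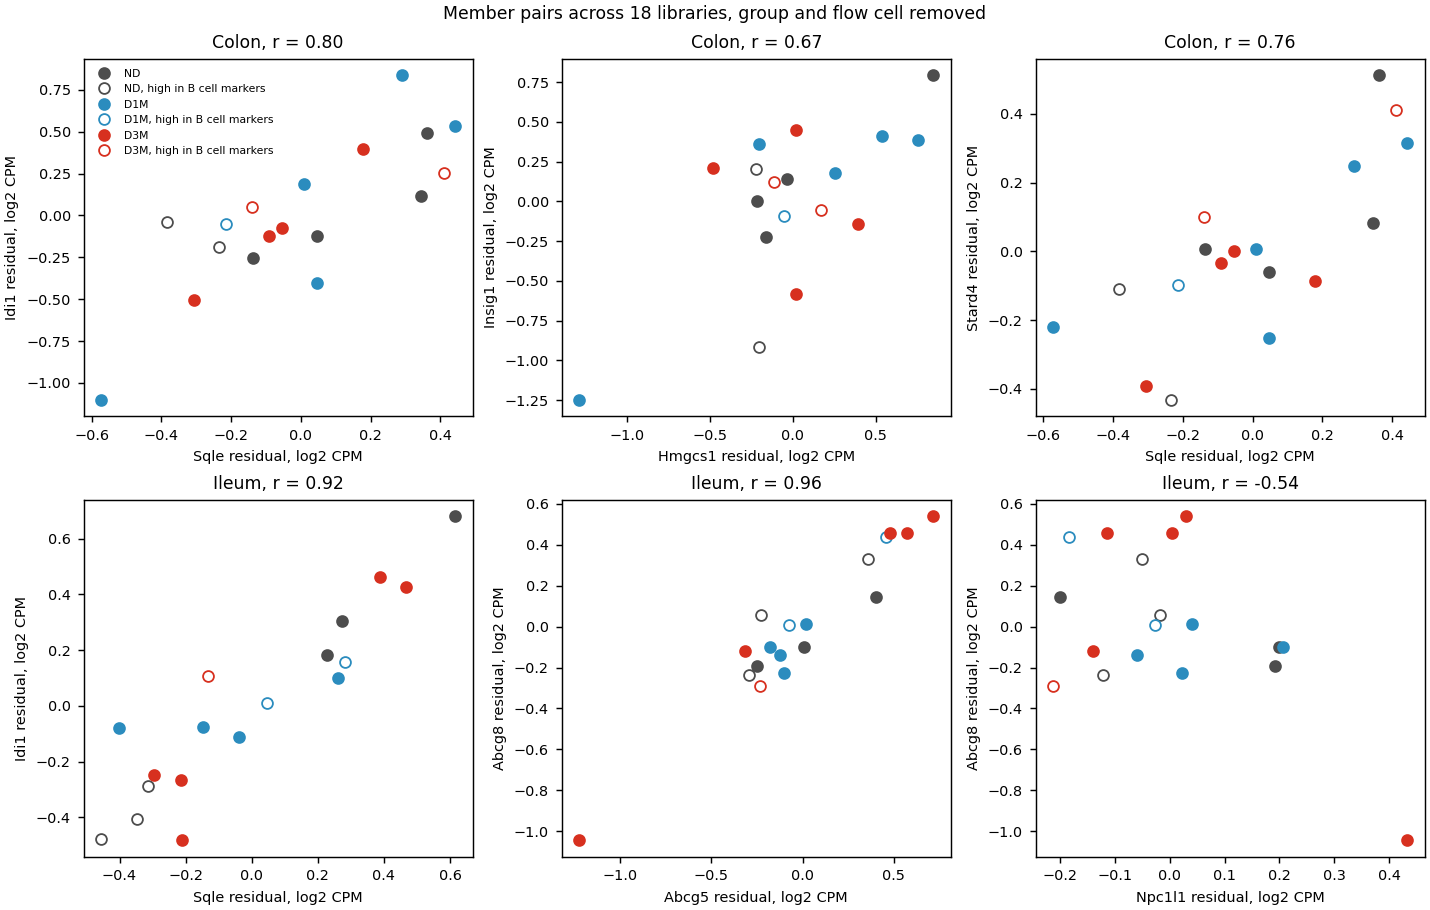
Residual log2 CPM of gene pairs, 1 point per library, in colon (top) and ileum (bottom), with open circles for libraries high in B cell markers. Sqle and Idi1 lie along a line in both tissues (r of 0.80 in colon and 0.92 in ileum), and 1 D3M library, of rat P762, lies far from the others in both panels with Abcg8.

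The synthesis genes as a group were highest relative to their group and flow cell in ileum of ND rat K4037, where the mean residual was 0.38 and 17 of 18 genes were above 0, and of D3M rat P762, at 0.31. They were lowest in ND rat K4028, at -0.26 with 1 of 18 genes above 0, and in D3M rat K3977, at -0.235. In colon the highest were D1M rat K3987, at 0.28, and ND rat K4028, at 0.26, and the lowest was D1M rat K3978, at -0.34. K4028 was the colon library with 8706 CPM of the ileal Fabp6. Since the mean of each group had been removed, these residuals cannot show whether the groups differed. The ileum and colon of the same rat did not move together, with r = -0.02 and rho = 0.08 over 18 rats.

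Across ileum libraries the mean of the synthesis genes moved with the mean of the enterocyte markers, with r = 0.64 and rho = 0.67. The fibroblast markers, with r = 0.60, and the adipocyte markers, with r = 0.56, followed it nearly as closely, and r was 0.43 for smooth muscle, 0.35 for pan-epithelial, -0.43 for crypt and proliferation, -0.36 for B cell and -0.27 for T cell markers, and -0.13 for the library total. In colon r with the enterocyte markers was 0.41, and 0.01 without K4028, and the other marker lists lay between -0.26 and 0.34. Their part in the correlations was not tested. In whole tissue, fewer cells of a type and less RNA per cell cannot be told apart.

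The genes most like the synthesis mean outside the list were named by rank of r over all genes tested. In ileum they included RGD1310769, Resp18, Ppp1r3d, Lrp3, Cers1, Gdf1 and Wipi1, with r between 0.80 and 0.88. Cers1 and Gdf1 had the same r of 0.82, and reads of these neighbouring genes may be shared. In colon they included Slc25a24, Golga1, Rab6a, Emc1, RGD1310769, Stk3, Pip5k1b, Cab39l and Sdcbp, with r between 0.83 and 0.89. RGD1310769 was in both lists.

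Because the synthesis genes moved together, the stretches before their start sites are shown for the 3 synthesis genes that followed the block most closely in ileum and have an entry in the promoter table of RefSeq (GRCr8), which covered 23 of the 30 listed genes. Each sequence is the 250 bases before the start, 5′ to 3′ on the strand of the gene, with CCAAT boxes of either strand (CCAAT or ATTGG) in capitals. The CCAAT box is the site of NF-Y, which is known to act beside SREBP at many sterol genes. The last sequence is the whole interval between the starts of Abcg5 and Abcg8, on the plus strand.
Idi1, chr17:66547525-66547774, minus strand: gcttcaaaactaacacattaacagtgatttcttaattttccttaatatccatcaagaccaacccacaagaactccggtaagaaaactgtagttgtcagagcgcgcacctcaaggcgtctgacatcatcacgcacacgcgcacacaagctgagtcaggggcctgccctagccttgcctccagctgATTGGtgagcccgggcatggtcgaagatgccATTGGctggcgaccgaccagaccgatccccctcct
Msmo1, chr16:29746863-29747112, plus strand: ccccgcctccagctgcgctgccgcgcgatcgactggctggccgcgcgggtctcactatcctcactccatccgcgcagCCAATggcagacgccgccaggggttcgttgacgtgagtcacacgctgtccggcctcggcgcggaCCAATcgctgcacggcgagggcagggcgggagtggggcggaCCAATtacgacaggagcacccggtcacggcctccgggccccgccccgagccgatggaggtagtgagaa
Nsdhl, chrX:155817110-155817359, plus strand: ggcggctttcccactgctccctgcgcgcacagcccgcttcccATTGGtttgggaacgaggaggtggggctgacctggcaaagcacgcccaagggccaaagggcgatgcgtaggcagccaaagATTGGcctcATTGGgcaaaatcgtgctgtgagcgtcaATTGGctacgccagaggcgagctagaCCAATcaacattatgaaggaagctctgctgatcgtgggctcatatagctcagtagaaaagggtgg
Abcg5 and Abcg8, chr6:15717731-15717935: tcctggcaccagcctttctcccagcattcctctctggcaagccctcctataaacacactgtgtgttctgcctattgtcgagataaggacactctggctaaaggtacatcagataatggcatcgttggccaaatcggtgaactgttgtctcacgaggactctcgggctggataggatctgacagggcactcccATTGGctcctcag

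Idi1 held 2 CCAAT boxes in this window, Msmo1 3 and Nsdhl 5, and the 205 bases shared by Abcg5 and Abcg8 held 1. Over the list, CCAAT on either strand was present in 19 of 23 windows (82.6%), against 34% of 33469 promoters in the table and 34.6% of the 10806 that belong to genes tested in ileum. The longer word ATTGGC, which overlaps the CCAAT box, was present in 17 of 23 windows (73.9%), against 12.7% of all promoters. Abcg5 and Abcg8 enter both counts as separate windows, although these windows share the 205 bases and the box within them. The GC box GGGCGG was present in 17 of 23 (73.9%), against 30.5% of all promoters and 56% of those of genes tested in ileum. The E box CACGTG was present in 3 of 23, against 5.59% of all, and the sterol element TCACNCCAC in 0 of 23, against 0.974% of all. All words were searched on both strands. A match is a word in a window and not a shown site. For a word as rare as TCACNCCAC, 0 of 23 does not show that sterol elements are absent.

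Calls between D3M and ND ileum are given beside the share over all genes, and a gene not called is not shown to be unchanged. Of 29 genes tested, 2 rose and 0 fell at FDR < 0.05, where 12.5% of all genes tested were called, 8.31% as higher and 4.22% as lower. The 2 were Ggps1 and Soat2. The median log2 fold change of the list was 0.09, against -0.08 for all genes, and 6 of the 29 had an unadjusted p under 0.05, where 29.7% of all genes did.

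Ggps1 (ENSRNOG00000016767, chr17:53956203-53971443 in rn6) had 19.5, 21.2 and 33.7 CPM as the lowest, median and highest of D3M rats, against 16.4, 17.5 and 18.2 CPM in ND rats. Every D3M rat lay above every ND rat, and D1M rats lay between and across them at 17.7 to 22.5 CPM. The log2 fold change was 0.51 (SE 0.13, FDR = 0.0194). Within flow cell 3, where D3M and ND had 2 libraries each, the means were 26.6 and 17.3 CPM, and within flow cell 1 the 4 D3M libraries averaged 22.1 CPM against 17.9 CPM in the single ND library. The edgeR call was lost without the libraries of flow cell 2 (FDR = 0.0672), with D3M and ND alone in the model (FDR = 0.142), and when ND rat K4028, ND rat K4040, D1M rat K3986 or D3M rat P762 was left out, at FDR of 0.0507 to 0.0613, with a log2 fold change of 0.37 without P762. The gene model counted as Ggps1 spans 15241 bases, against 24013 bases in RefSeq, so that its counts may miss reads of the gene.

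Soat2 (ENSRNOG00000053769, chr7:143754892-143767989 in rn6), the enzyme that esterifies absorbed cholesterol, had 235, 291 and 376 CPM as the lowest, median and highest of D3M rats, against 196, 243 and 275 CPM in ND rats. The groups overlapped, with 4 of 6 D3M rats above every ND rat. The log2 fold change was 0.45 (SE 0.12, FDR = 0.0234). The means within flow cell 3 were 324 CPM in D3M and 224 CPM in ND, and within flow cell 1 283 CPM in D3M and 234 CPM in the single ND library. The edgeR call was lost without flow cell 2 (FDR = 0.0842), with D3M and ND alone in the model (FDR = 0.15), and when ND rat K4040, D1M rat K3986 or D3M rat P780 was left out, at FDR of 0.0645 to 0.0783.

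Markers of absorptive enterocytes moved in the same comparison. Of 14 enterocyte markers tested, 11 rose in D3M ileum, with a median log2 fold change of 0.87, and their mean log2 CPM was 10.16 to 10.84 in D3M rats and 9.54 to 10.07 in ND rats. Of 12 crypt and proliferation markers, 1 fell, with a median log2 fold change of -0.545, and of 7 fibroblast markers 3 fell, with a median of -0.75. Their part in the changes of Ggps1 and Soat2 was not tested.

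**Figure D3:**
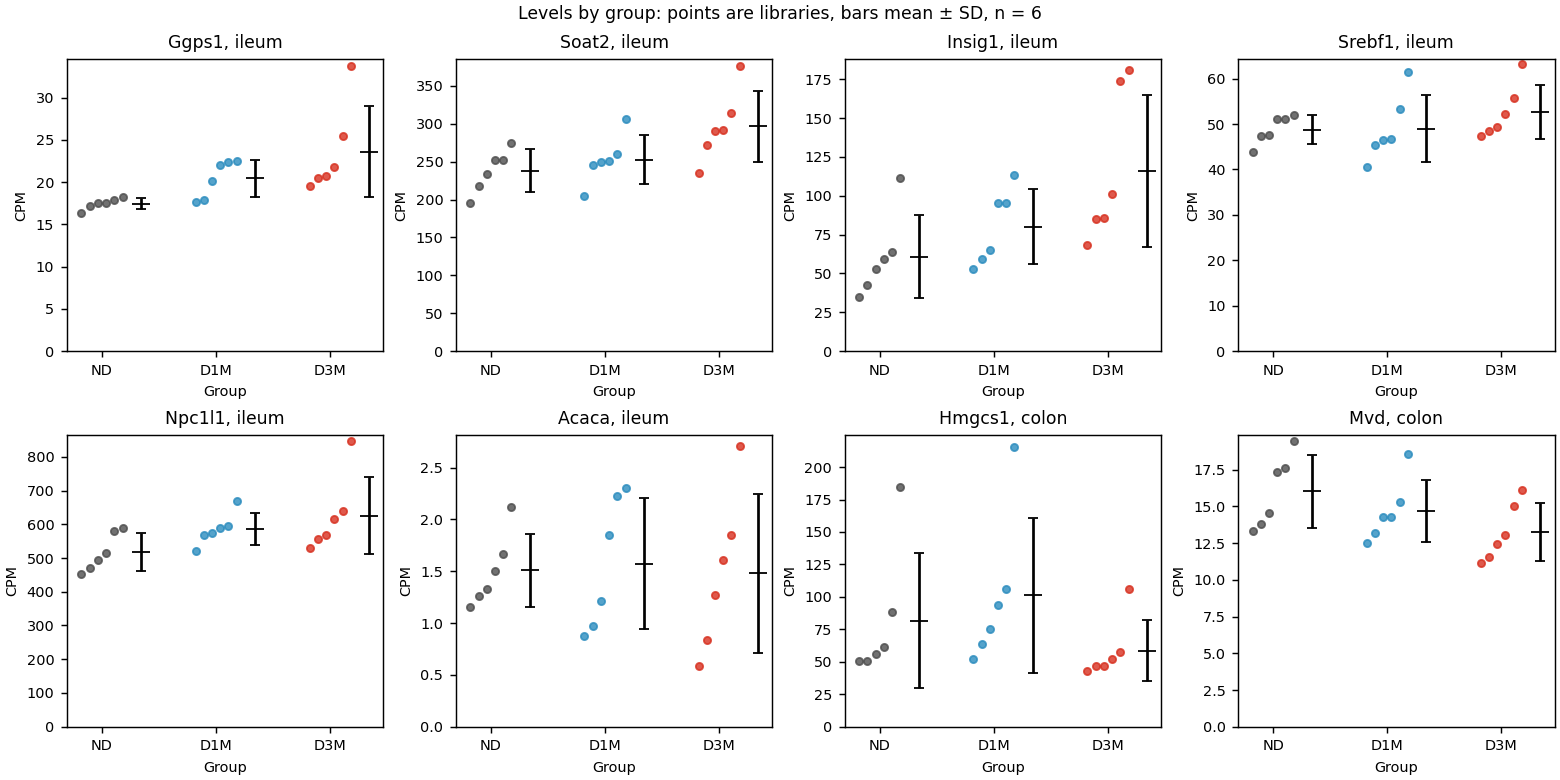
Level in CPM of 8 genes of the list by group, ND, D1M and D3M from left to right, with 1 point per library and the mean with SD of 6 libraries beside it. The D3M values of Ggps1 in ileum, 19.5 to 33.7 CPM, lie above all ND values, while the groups overlap in the other panels.

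Among the 8 genes of the mevalonate and isoprenoid steps, Ggps1 was the only call between D3M and ND ileum, and the median log2 fold change was -0.13. Hmgcs1 had 150, 296 and 384 CPM in D3M rats as the lowest, median and highest, and 158, 243 and 378 CPM in ND rats, with a log2 fold change of -0.13 (SE 0.28, FDR = 0.783). Its groups overlapped almost wholly, and its mean was higher in D3M rats, so that the sign came with the flow cell term: without that term the values of Hmgcs1 and Acat2 were 0.11 and 0.02. Fdps, which makes farnesyl diphosphate, had 329, 463 and 538 CPM in D3M rats and 264, 334 and 491 CPM in ND rats, with a log2 fold change of 0.22 (SE 0.18, FDR = 0.438). Mvk, the mevalonate kinase, had a log2 fold change of -0.26 (SE 0.15, FDR = 0.261) and Idi1 one of -0.28 (SE 0.24, FDR = 0.455). Acat2, Pmvk and Mvd lay between -0.15 and 0.03. The gene model counted as Fdps spans 20362 bases, against 9625 bases in RefSeq, so that its counts may hold reads of neighbouring genes.

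None of the 10 squalene and sterol genes was called by edgeR in this comparison, and none had an unadjusted p under 0.05. DESeq2 and voom called none of them either, and without a flow cell term edgeR called Sc5d. Their median log2 fold change was 0.08, with 7 above 0. Sc5d, the lathosterol desaturase, had the largest value, with 250, 289 and 384 CPM in D3M rats and 160, 214 and 298 CPM in ND rats, and a log2 fold change of 0.32 (SE 0.17, FDR = 0.21). Sqle had 102, 151 and 236 CPM in D3M rats and 81.1, 107 and 182 CPM in ND rats, with a log2 fold change of 0.16 (SE 0.24, FDR = 0.67). The spread between rats of a group exceeded the difference between groups for Sqle. Lss ranged from 5.35 to 17.1 CPM in D3M rats and from 4.23 to 11.1 CPM in ND rats.

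In the D3M and ND groups, single rats were often at the ends of the range across genes. In D3M ileum K3980 was the highest library for 12 of the 18 synthesis genes and P780 the lowest for 9. In ND ileum K4048 was the highest for 14 of 18 and K4047 the lowest for 8. In D1M ileum the ends were split, with K3987 the highest for 8 and K3988 for 7, and K3986 the lowest for 7 and K3989 for 6. K3980 and K4048 were both on flow cell 1, and K4047 was on flow cell 2.

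The 5 genes of SREBP control and sterol transport had log2 fold changes from 0.00 to 0.53 between D3M and ND ileum, with a median of 0.19, and none passed FDR < 0.05. Insig1 had 68.1, 93.2 and 181 CPM as the lowest, median and highest of D3M rats, against 35.1, 55.9 and 111 CPM in ND rats. D3M rats K3961 and K3980, at 174 and 181 CPM, lay above all others, and the other 4 D3M rats, at 68.1 to 101 CPM, lay below the highest ND rat. The log2 fold change was 0.53 (SE 0.22, FDR = 0.112), and Insig1 passed without D3M rat K3959 (0.63, FDR = 0.0318) and without a flow cell term (0.93, FDR = 0.0343). Srebf1, which encodes the SREBP of fatty acid synthesis, had 47.3, 50.8 and 63.2 CPM in D3M rats and 43.9, 49.3 and 51.9 CPM in ND rats, with a log2 fold change of 0.23 (SE 0.10, FDR = 0.117), and passed with voom (0.32, FDR = 0.0464). The counting of strands was not given in the sources used here, and Srebf1 overlaps Rai1 on the opposite strand, as Idi1 does Wdr37.

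Stard4 had 39.2, 46.0 and 49.5 CPM in D3M rats and 29.6, 37.6 and 46.3 CPM in ND rats, with a log2 fold change of 0.19 (SE 0.12, FDR = 0.299). Srebf2 had a log2 fold change of 0.11 (SE 0.08, FDR = 0.366) and Scap of 0.00 (SE 0.07, FDR = 0.975). Fasn had 61.8, 65.5 and 86.1 CPM in D3M rats, against 71.1, 81.1 and 90.4 CPM in ND rats, with a log2 fold change of -0.18 (SE 0.11, FDR = 0.275). Acaca, at 0.587 to 2.71 CPM in D3M rats and 1.16 to 2.12 CPM in ND rats, had a log2 fold change of -0.60 (SE 0.27, FDR = 0.146).

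The 4 genes of uptake, export and esterification had positive log2 fold changes in D3M ileum, with a median of 0.30, and Soat2 alone passed. Npc1l1 had 530, 591 and 846 CPM in D3M rats and 453, 505 and 590 CPM in ND rats, with a log2 fold change of 0.28 (SE 0.13, FDR = 0.164), and P762 was its highest library. Abcg5 had 28.5, 88.9 and 120 CPM in D3M rats and 57.0, 70.7 and 93.8 CPM in ND rats, with a log2 fold change of 0.14 (SE 0.32, FDR = 0.793). Abcg8 had 25.0, 61.9 and 75.4 CPM in D3M rats and 41.0, 45.9 and 60.8 CPM in ND rats, with a log2 fold change of 0.32 (SE 0.27, FDR = 0.45). For both exporters 3 D3M rats lay above every ND rat and P762 lay below every ND rat. The gene model counted as Npc1l1 spans 214742 bases, against 19664 bases in RefSeq, so that its counts may hold reads of neighbouring genes, and it overlaps LOC103693780 on the opposite strand.

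**Figure D4:**
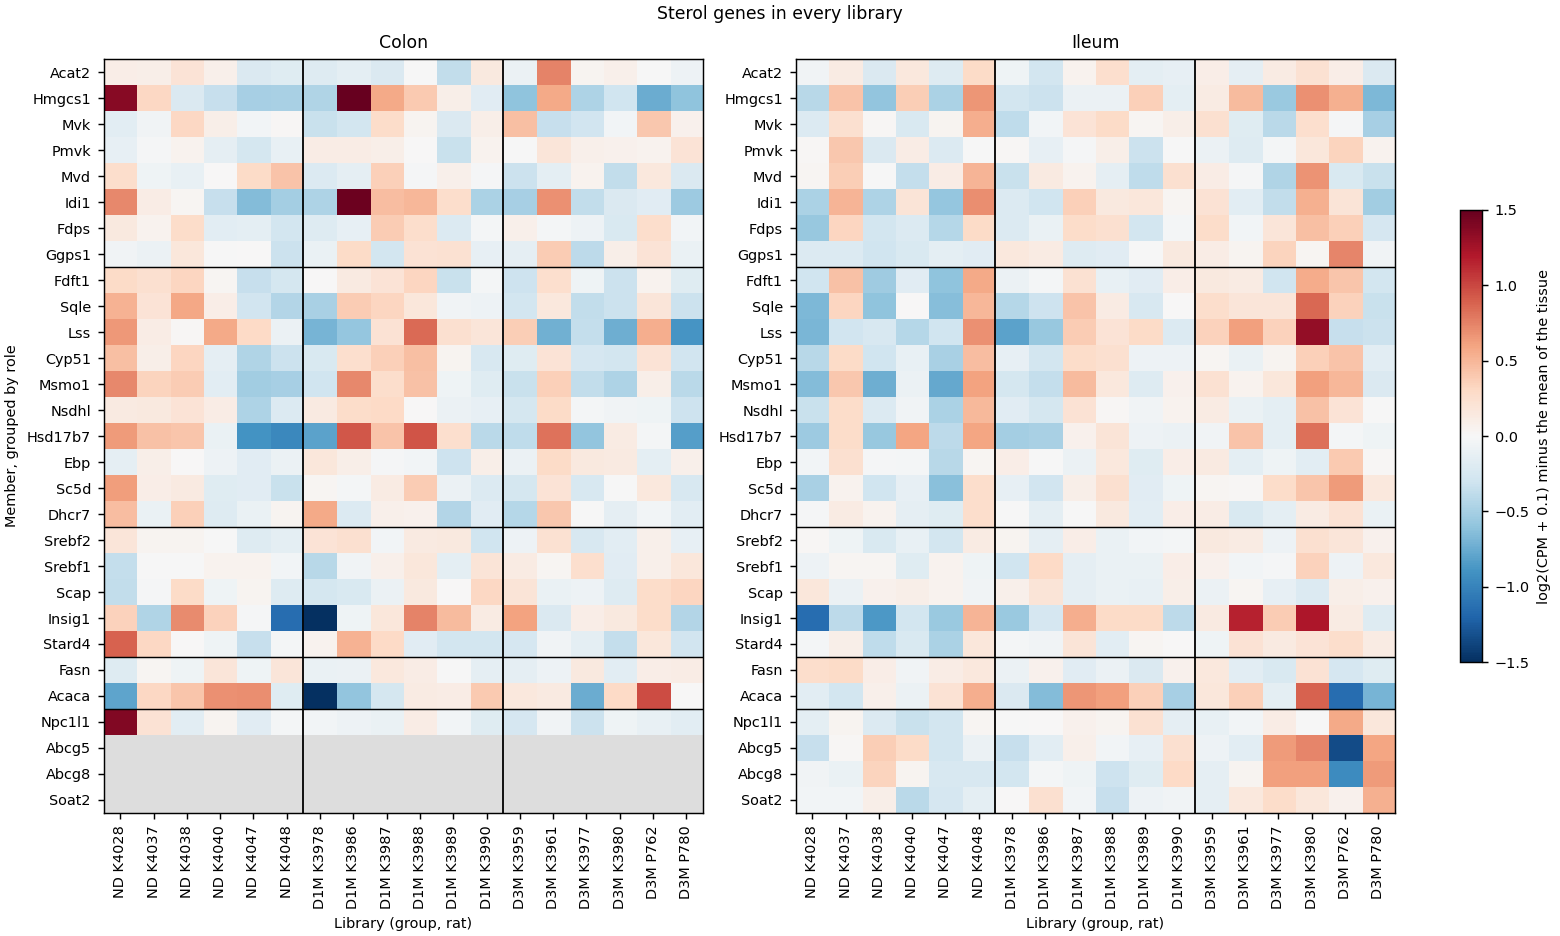
Level of each gene of the list in each library, as log2(CPM + 0.1) minus the mean of the tissue, in colon (left) and ileum (right), with groups ND, D1M and D3M from left to right and genes by role; grey marks the 3 genes that did not pass the filter in colon. Columns are mostly of 1 colour over the synthesis genes, and no group is uniformly red or blue.

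None of the genes was called in the other ileum comparisons. Between D1M and ND ileum edgeR called 0 of 29 genes, where 0.0154% of all genes were called (0.00768% as higher and 0.00768% as lower), and 1 had an unadjusted p under 0.05, where 8.34% of all genes did, namely Ggps1 with a log2 fold change of 0.27 (SE 0.12, FDR = 0.573). Its D1M values were 17.7, 21.1 and 22.5 CPM, and 4 of 6 D1M rats lay above all ND rats. Between D3M and D1M ileum 0 of 29 were called, where 2.22% of all genes were called (1.93% as higher), and 1 had an unadjusted p under 0.05, Soat2 with 0.28 (SE 0.11, FDR = 0.155). DESeq2 and voom called 0 in both comparisons. D3M and D1M rats were close in age, and 24 of the 29 log2 fold changes between them were above 0, with a median of 0.11 against -0.04 for all genes; since the synthesis genes moved together from library to library, these signs are not independent of each other.

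In colon edgeR called none of the 26 genes tested in any comparison, where 0.0155% of all genes were called between D3M and ND and 0% in the other comparisons. DESeq2 and voom also called 0. An unadjusted p under 0.05 was found for 3 genes of the D3M and ND comparison, where 10% of all genes had one. It was found for 0 genes of the D1M and ND comparison (4.66% of all genes) and for 2 genes of D3M against D1M (5.28% of all genes). The median log2 fold change of the list between D3M and ND was 0.005, against -0.01 for all genes.

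The colon genes with the smallest p were in the mevalonate steps. Mvd, the mevalonate diphosphate decarboxylase, had 11.2, 12.8 and 16.1 CPM as the lowest, median and highest of D3M rats, against 13.4, 15.9 and 19.5 CPM in ND rats, and the groups overlapped. Its log2 fold change was -0.36 (SE 0.12, FDR = 0.364). Pmvk, the phosphomevalonate kinase, had 0.18 (SE 0.08, FDR = 0.482). Npc1l1 had 84.7, 97.1 and 102 CPM in D3M rats and 94.3, 107 and 279 CPM in ND rats, with a log2 fold change of -0.43 (SE 0.20, FDR = 0.493), and the highest ND value was that of K4028, with 123 CPM the next. Without K4028 the log2 fold change of Npc1l1 was -0.12 (SE 0.07, FDR = 0.689).

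Hmgcs1 varied widely in colon. Its lowest, median and highest values were 42.7, 49.3 and 106 CPM in D3M rats and 52.3, 84.5 and 216 CPM in D1M rats, against 50.3, 58.6 and 184 CPM in ND rats. The log2 fold change between D3M and D1M was -0.79 (SE 0.31, FDR = 0.945). K3961 was the high D3M rat, K3986 the high D1M rat and K4028 the high ND rat, and the groups overlapped. Acat2, the cytosolic acetoacetyl-CoA thiolase, had 0.31 between D3M and D1M (SE 0.13, FDR = 0.945), with 51.0 CPM in D3M rat K3961 and 28.6 to 31.9 CPM in the other D3M rats. K3961 was the highest D3M colon library for 12 of the 18 synthesis genes.

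The tissues differed far more than the groups. Between colon and ileum 21 of 29 genes were lower in colon and 6 were higher at FDR < 0.05, where 34.5% of all genes tested were lower and 38.7% higher, 73.2% in all, and 75% of all genes had an unadjusted p under 0.05. The median log2 fold change of the list was -0.89, against 0.03 for all genes. With the rat as a block the counts were the same, 21 lower and 6 higher.

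Of the mevalonate and isoprenoid genes 5 were lower and 2 higher in colon, and of the squalene and sterol genes 8 were lower and 1 higher. Hmgcs1 had 40.5, 55.7 and 204 CPM as the lowest, median and highest of 18 colon libraries, against 165, 239 and 408 CPM in ileum, on the scale of all 36 libraries. It was lower in colon in 17 of 18 rats, with a log2 fold change of -1.78 (SE 0.20, FDR = 1.5e-09). Msmo1 had 70.3, 92.0 and 166 CPM in colon and 165, 300.2 and 439 CPM in ileum, with -1.40 (SE 0.14, FDR = 3.83e-11), and Dhcr7 had 42.5, 55.8 and 86.7 CPM in colon and 111, 128 and 156 CPM in ileum, with -1.11 (SE 0.08, FDR = 1.16e-14). The ranges of Dhcr7, Sc5d and Cyp51, the lanosterol demethylase, did not overlap between tissues.

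The exceptions within the pathway were Ebp, Pmvk and Acat2, which were higher in colon. Ebp had 92.3, 115 and 140 CPM in colon and 64.9, 87.4 and 122 CPM in ileum, with a log2 fold change of 0.38 (SE 0.05, FDR = 1.03e-07). Pmvk had 0.23 (SE 0.06, FDR = 0.000444) and Acat2 0.19 (SE 0.07, FDR = 0.0119). Ggps1 had 0.00 (SE 0.07, FDR = 0.971) and Hsd17b7, a sterol ketoreductase, -0.15 (SE 0.16, FDR = 0.408), and neither was called. The calls of Acat2 and Fasn did not hold in every alternative.

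The control genes parted between tissues. Scap was higher in colon in all 18 rats, with 117, 147 and 190 CPM in colon and 62.7, 73.9 and 81.8 CPM in ileum, without overlap, and a log2 fold change of 1.05 (SE 0.06, FDR = 8.19e-17). Insig1 had 8.26, 29.7 and 45.3 CPM in colon and 36.6, 82.8 and 192 CPM in ileum, with -1.39 (SE 0.15, FDR = 2.77e-10). Stard4 had -1.65 (SE 0.10, FDR = 1.31e-16), and its tissues did not overlap. Srebf2 was lower in colon, with -0.51 (SE 0.04, FDR = 1.48e-12), and Srebf1 was higher, with 0.20 (SE 0.05, FDR = 0.000614). Fasn was higher by 0.14 (SE 0.05, FDR = 0.00786) and Acaca lower, with -0.51 (SE 0.18, FDR = 0.012).

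Sterol uptake, export and esterification were the most ileal of the list. Npc1l1 had 80.7, 95.2 and 262 CPM in colon and 484, 602 and 940 CPM in ileum, with a log2 fold change of -2.53 (SE 0.11, FDR = 1.65e-19), and the 262 CPM was K4028, with 114 CPM the next highest colon library. Abcg5, Abcg8 and Soat2 were near absent from colon outside K4028, which had 535, 271 and 1315 counts of them in that order. In the other 17 colon libraries together there were 26 counts of Abcg5, 1 of Abcg8 and 92 of Soat2, and 7, 16 and 1 of these libraries had 0. In ileum the 3 genes had 72.7, 49.1 and 266 CPM at the median.

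Without K4028, the pooled level of Abcg5 in ileum was 831 times that in colon (95% exact Poisson interval 567 to 1270), that of Abcg8 14300 times (2560 to 563000) and that of Soat2 799 times (651 to 991), where the intervals cover counting error only. With K4028 in the model, the log2 fold changes of colon over ileum were -6.64 (SE 0.71), -6.86 (SE 0.70) and -7.73 (SE 0.75). In the same model without the colon library of K4028 and the ileum library of K4040 they were -9.56 (SE 0.29), -12.20 (SE 0.24) and -9.65 (SE 0.16), and fitted values of genes this close to 0 in colon depend on the prior count.

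**Figure D5:**
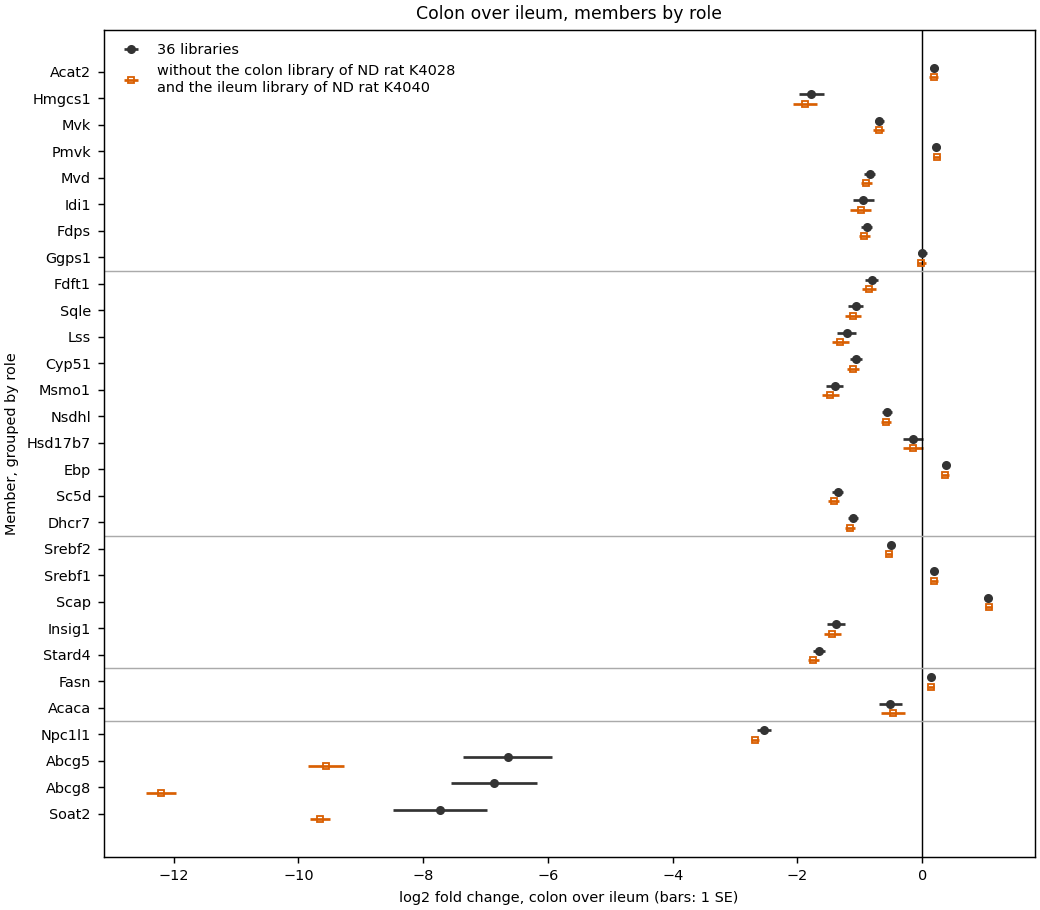
Log2 fold change of colon over ileum for each gene by role, with bars of 1 SE, over 36 libraries (dark circles) and without the colon library of K4028 and the ileum library of K4040 (orange squares). Scap lies farthest to the right at 1.05, and Abcg5, Abcg8 and Soat2 lie far to the left, farther still without these libraries.

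Other cell types differed between the tissues in the same libraries. The summed level of 14 enterocyte markers was 3079 to 17689 CPM in colon and 24189 to 68156 CPM in ileum, that of 9 smooth muscle markers was 6125 to 19929 CPM in colon and 1592 to 8450 CPM in ileum, and that of 7 adipocyte markers was 550.2 to 1448 CPM in colon and 41.1 to 216.5 CPM in ileum. The summed level of 11 pan-epithelial markers was 13395 to 21374 CPM in colon and 15143 to 27618 CPM in ileum. The colon library of K4028 had a mean of enterocyte markers of 9.62 log2 CPM, against 3.9 to 5.08 in the other 17. The part of these cell types in the lower level of the sterol genes in colon was not tested.

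Whether the difference between D3M and ND was itself different between the tissues was tested directly, as the colon difference minus the ileum difference. Of 29 genes 3 were called, all lower, where 1.56% of all genes were called and 1.27% as lower: Soat2 with -5.82 (SE 1.32, FDR = 0.0263), Abcg8 with -8.86 (SE 2.08, FDR = 0.0381) and Abcg5 with -6.85 (SE 1.80, FDR = 0.0486). These are the genes whose ND colon level came from K4028, and without the colon library of K4028 and the ileum library of K4040 the values were -1.29 (FDR = 0.221) for Soat2 and -1.59 (FDR = 0.765) for Abcg5, and none of the 29 was called. The Abcg8 value there was 0.43, from colon libraries with a single count of it in all. No gene was called either when colon of D3M rat K3961, colon of D3M rat K3980 or ileum of D1M rat K3986 was left out, and DESeq2 did not call Abcg5 (FDR = 0.0544). With the rat as a block none was called either, and the values were -4.88 for Soat2 (FDR = 0.27), -13.83 for Abcg8 (FDR = 0.168) and -6.59 for Abcg5 (FDR = 0.341). For the difference between D3M and D1M, edgeR called 0 of 29, where 0% of all genes were called and 8.31% had an unadjusted p under 0.05, and DESeq2 called 1, Abcg8.

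Genes of the same pathways outside the list were read from 3 further lists. In ileum between D3M and ND, 2 of 17 other sterol pathway genes rose and 2 fell, 2 of 13 other lipogenic genes rose and 2 fell, and 5 of 14 other sterol handling genes rose and 1 fell, against the 12.5% called among all genes. The 6 with the smallest p all rose: Apob, the chylomicron protein, by 0.87 on the log2 scale (SE 0.15, FDR = 0.00255), Mlxipl, the glucose-sensing ChREBP, by 0.58 (SE 0.10, FDR = 0.00377), Gramd1b, a carrier of cholesterol at membrane contacts, by 0.70 (SE 0.13, FDR = 0.00387), Lipa, the lysosomal acid lipase that frees cholesterol from its esters, by 0.69 (SE 0.13, FDR = 0.00425), Erlin1, which helps hold SREBP in the endoplasmic reticulum, by 0.63 (SE 0.13, FDR = 0.00695), and Insig2, the other INSIG protein, by 0.86 (SE 0.18, FDR = 0.00791). Apob is also among the enterocyte markers.

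Between D3M and D1M ileum, Lipa (0.59, FDR = 0.0242), Mlxipl (0.44, FDR = 0.0257), Apob (0.57, FDR = 0.0337) and Erlin1 (0.50, FDR = 0.0363) rose. Between D1M and ND ileum and in the group comparisons of colon none of these genes was called by edgeR. The difference of Insig2 and Lipa between D3M and ND differed between tissues, with -1.0 (SE 0.26, FDR = 0.0407) and -0.73 (SE 0.19, FDR = 0.0435) as colon minus ileum, and so did that of Gramd1b, with -1.71 (SE 0.44, FDR = 0.044). With the rat as a block edgeR called 0 of all genes for this difference, so these 3 calls were lost. Their values without the colon library of K4028 are not given here. In colon alone the log2 fold changes between D3M and ND were -0.086 (SE 0.173) for Insig2, 0.013 (SE 0.124) for Lipa and -0.947 (SE 0.405) for Gramd1b.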

How the data were processed

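The authors sequenced stranded poly(A) libraries on an Illumina instrument, aligned reads to rn6 with STAR and counted them per gene in SeqMonk, and the deposited values are raw counts per gene in 36 libraries of 18 rats. Versions and the strand setting of the counting are not given in the sources used here. The 36 further columns of standard deviations hold only 0 and were not used.

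Genes were filtered per tissue with filterByExpr and tested in edgeR 4.0.16 (R 4.3.3) with TMM scaling and the quasi-likelihood F test, with group and flow cell as terms, and Benjamini-Hochberg adjustment over all genes tested (FDR < 0.05). Colon against ileum, and the difference between tissues in a group effect, were fitted over all 36 libraries. p-values measure the spread between these rats. The SE given with an edgeR log2 fold change is its absolute value divided by the square root of the F statistic. Correlations used log2 CPM (prior count 2) after removal of group and flow cell, with 100000 permutations that made no allowance for the terms removed. The scripts were tested on simulated data.

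The genes of the list and the further gene lists (other sterol pathway, lipogenic and LXR, and sterol handling genes, and markers of B cells, T cells, enterocytes, epithelium, crypts, smooth muscle, fibroblasts and adipocytes) were chosen with earlier results of these data known. All listed genes are named by role, with at most the 6 further pathway genes of smallest p per comparison and the 10 genes most like the synthesis mean in each tissue, of which some are not reported here. B cell marker and T cell marker lists gave 0 calls among 15 and 7 genes between D3M and ND ileum in edgeR, with 0 at an unadjusted p under 0.05, smooth muscle markers 0 of 9, adipocyte markers 1 lower of 6 and pan-epithelial markers 4 higher and 1 lower of 11.

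Ileum and colon of a rat are paired by the animal. Over genes, the correlation of their deviations from the group means ran from -0.564 to 0.767 with a median of -0.022, and exceeded 0.1 in 7 of 18 rats. Alternatives were RLE and upper quartile scaling, other filters, DESeq2 1.42.0, limma 3.58.1 voom, the newer edgeR method, no flow cell term, no libraries of flow cell 2, B cell markers as a covariate, only the 2 groups compared, the rat as a block, and leaving out every library once. Leaving out the colon library of K4028 and the ileum library of K4040 in the correlations was added after seeing the data. Figures were drawn with matplotlib 3.10.9.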

Additional observations from a re-analysis of the deposited data

Results flagged for a closer look

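Among 165 groups of 6 libraries, 9 held a library far from the others of its group, where chance gives about 1 in 20 (8.25). In ileum these were Lss in ND rat K4048 at 11.1 CPM (others 4.23 to 5.79) and Hmgcs1 in D1M rat K3989 at 305 CPM (others 192 to 226). In colon, ND rat K4028 stood apart for Srebf1 at 51.1 CPM (others 63.6 to 68.2) and Npc1l1 at 279 CPM (others 94.3 to 123). D1M rats stood apart in colon for Pmvk, at 82.0 CPM in K3989 (others 104 to 112), and Insig1, at 8.72 CPM in K3978 (others 27.4 to 48.0). D3M rat K3961 stood apart in colon for Acat2 at 51.0 CPM (others 28.6 to 31.9), Hmgcs1 at 106 CPM (others 42.7 to 57.7) and Idi1 at 63.6 CPM (others 27.2 to 35.3).

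The change between D3M and ND differed between colon and ileum for Abcg5 (-6.85), Abcg8 (-8.86) and Soat2 (-5.82) on the log2 scale, in edgeR's test of the difference itself. In ND colon, on the scale of all 36 libraries, these genes were at 33.9, 17.2 and 83.2 CPM in K4028 and near 0 elsewhere, and none was called without that library and the ileum library of K4040.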

How the results depend on the processing

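Between D3M and ND ileum, the count of 2 genes called became 4 with no flow cell term (Sc5d and Insig1 added), and 0 without flow cell 2, without the colon library of K4028 and the ileum library of K4040, and with only the 2 groups compared. It ranged from 0 to 3 with each library left out. Over all genes the main count of 1632 was 3007, 561, 1024 and 185 in these 4 settings. The count of 3 genes whose change between D3M and ND differed between tissues became 1 without a filter, and 0 with voom, without flow cell 2, without K4028 and K4040, and with the rat as replicate block, and ranged from 0 to 3 with each library left out; over all genes 214 were called, and 0 with the block. Abcg8 there turned to 0.43 without K4028 and K4040, and ran from -9.79 to 0.50 with 1 library left out, where its colon counts were almost all 0. For D3M against D1M that count was 1 with DESeq2 (Abcg8). Of the 14 gene pairs 10 passed, against 11 with only the group removed, 8 without libraries high in B cell markers and 10 without K4028 and K4040. The block left the 27 calls between colon and ileum at 27. Causes were not tested. Groups of 6, uneven flow cells, the age difference from ND, and low counts of Lss, Acaca and the colon exporters limit what can be seen.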
